A study of Mus musculus with 6 samples.

Results

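Integrins are the cell surface receptors, each made of an alpha and a beta chain, by which cells hold on to extracellular matrix, and laminins are matrix proteins built of 1 alpha, 1 beta and 1 gamma chain. Genes of both families were selected from the count table by symbol: 37 of its 39179 genes matched, 26 with integrin-type and 11 with laminin symbols. One of them, Itgb3bp, encodes a centromere protein and not an integrin chain, which left 36 chains, 25 of integrins and 11 of laminins. Of these, 24 chains (16 integrin and 8 laminin) had 30 or more counts summed over the 6 libraries, the minimum set for comparing the groups.

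RNA had been sequenced from neural progenitor cells of the cerebral cortex of CD1 mouse embryos at E13.5, which were differentiated and lysed in culture flasks. One group (GFP, 3 libraries) stably expressed green fluorescent protein. The other (G392E-NS, 3 libraries) stably expressed the G392E variant of neuroserpin, a secreted protease inhibitor whose variant polymerises in the endoplasmic reticulum and causes the dementia FENIB. The sources used here name neither the promoter of the constructs nor the number of clones, nor whether replicates were separate cultures, so p-values measure the spread between these libraries, which may be technical. Both groups carried an introduced gene, and cells with wild-type neuroserpin were not analysed here. The mouse neuroserpin gene Serpini1 had 4.2, 5.17 and 4.71 CPM (counts scaled to a common library total) in GFP replicates 1 to 3, against 5.45, 6.74 and 4.96 CPM in G392E-NS replicates 1 to 3, groups that overlapped (edgeR quasi-likelihood test, adjusted p = 0.419). Whether reads of the introduced variant would be counted there is not known, so it does not check the labels.

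In the developing cortex, laminins of the basement membrane and of the ventricular niche are held by radial glia, the stem cells of the cortex, mainly through receptors that contain integrin beta1. The alpha3, alpha6 and alpha7 chains pair with beta1 to bind laminin, and alpha5 with beta1 binds fibronectin. The alphav chain pairs with beta1, beta3, beta5, beta6 or beta8 to bind matrix proteins with an RGD sequence. Among the functions of alphav with beta8 is to hold latent TGF-beta. Laminin trimers form inside the cell from beta and gamma dimers, to which the alpha chain is added for secretion.

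Libraries held 15507487 to 24835835 counts. Some progenitor markers (Nes, Vim, Sox2, Fabp7), neuronal markers (Map2, Dcx) and oligodendrocyte lineage markers (Olig1, Olig2) were abundant in both groups. Others of these lists were lower, among them Hes1 (9.97 CPM in GFP and 8.03 in G392E-NS libraries), Rbfox3 (22.4 and 19.7) and Snap25 (8.91 and 12.3). Sox10 (6.18 and 5.88) and Mbp (2.16 and 3.07) were also lower, and the neuronal marker Stmn2 had 14 counts in all. Of 8 progenitor markers 1 fell in the edgeR test, where 1.36% of all genes tested were called lower. It was Nes, by 0.77 on the log2 scale (adjusted p = 0.048). That call was lost with upper-quartile scaling (0.0509) and with at least 1 CPM required (0.051). It was also lost without any one of GFP replicates 1, 2 and 3 (0.17, 0.163 and 0.0657) or G392E-NS replicates 2 and 3 (0.0754 and 0.104). DESeq2 also called the progenitor marker Slc1a3 higher (edgeR adjusted p = 0.0729). Of 7 astrocyte markers 3 rose (Aldoc, Slc1a2 and Aldh1l1), where 4.79% of all genes tested were called higher, and limma-voom called only Aldoc and Slc1a2. Gfap, S100b, Gja1 and Aqp4 did not pass with edgeR, and DESeq2 called S100b higher. Aqp4 had 12.9 CPM in GFP cells and 11.6 in G392E-NS cells. S100b (4.91 and 10.6) averaged higher in G392E-NS cells, as did Gja1 (256 and 658, with overlap). Gfap had 0.365 and 10.4 CPM, the latter mostly from G392E-NS replicate 2. The summed level of the list, most of it from Slc1a2 and Aldoc, was 1316 to 2171 CPM in the GFP libraries against 4061 to 7717 CPM in the others. Of 7 oligodendrocyte lineage markers Pdgfra rose (log2 fold change 1.12, adjusted p = 0.0435). Of 6 neuronal markers none passed with edgeR or limma-voom, while DESeq2 called Syt1 higher. With edgeR 2 of them were higher at an unadjusted p under 0.05, which 22.4% of all genes tested reached in either direction. Markers of microglia, endothelium and fibroblasts were low. The endothelial markers Cdh5 and Cldn5, the microglial Csf1r and the fibroblast genes Dcn and Lum had no count, and the 3 lists summed to at most 2.88, 1.25 and 0.703 CPM in GFP libraries and at most 3.18, 1.31 and 5.39 CPM in G392E-NS libraries. In the fibroblast list Twist1, a mesenchymal transcription factor, had no count in any GFP library and 1.41, 1.91 and 3.26 CPM in G392E-NS replicates 1 to 3. It passed the low-count filter only through the latter, so no test is given for it. The groups also differed in Xist, which is expressed from the inactive X chromosome of female cells, at 1.51 ± 0.0831 CPM in GFP cells against 1494 ± 345 in G392E-NS cells (SD, n = 3 each), so the construct and the cells that carry it cannot be told apart.

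Levels of different genes were compared as CPM per kilobase (kb) of annotated exon. Among integrin beta chains, Itgb1 and Itgb8 made up most of the transcripts. Itgb1 had 121 ± 12.8 CPM per kb in GFP and 113 ± 3.96 in G392E-NS libraries, and Itgb8 had 110.5 ± 15.1 and 108 ± 10.7 (SD, n = 3 each). These 2 chains did not differ beyond their spread, and their order depends on the length used: per kb of exon the Itgb8 to Itgb1 ratio was 0.75 to 1.18 over the 6 libraries, and per kb of the longest transcript 0.923 to 1.46. Itgb5 followed with 23.1 ± 6.18 CPM per kb in GFP and 38.8 ± 7.35 in G392E-NS libraries, and Itgb3, the chain of the platelet fibrinogen receptor, with 0.161 ± 0.0286 and 0.2 ± 0.0312. Itgb2 and Itgb7 (leukocyte chains), Itgb4 (the hemidesmosome chain), and Itgb6 (an epithelial chain) had 8, 9, 18 and 2 counts in all 6 libraries together. Itgb2l had no count in 123925863, which allows a level of up to 0.0242 CPM from counting error alone.

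Among alpha chains, Itga6 and Itgav stood far above the rest. Itga6 had 20.8 ± 1.84 CPM per kb in GFP and 19.3 ± 2.96 in G392E-NS libraries, and Itgav had 15.6 ± 4.35 and 14.9 ± 1.98. The Itgav to Itga6 ratio was 0.499 to 1.05, above 1 only in G392E-NS replicate 3. Per kb of the longest transcript Itga6 led in every library, with 48.2% of the alpha chain level against 36.8% for Itgav in G392E-NS replicate 3. Itga7 came next, at 1.6 ± 0.744 and 3.77 ± 1.18 CPM per kb. Below it stood Itga5 (1.12 and 0.566), Itga9, a receptor chain for tenascin (1.02 and 0.642), and Itga4, which binds fibronectin and Vcam1 (0.466 and 0.349). Itga5 and Itga9 overlapped in both groups and changed places between them, whereas Itga9 lay above Itga4 in all 6 libraries. Itga3, Itga10, Itga8, Itga2b, Itga1 and Itga2 each averaged under 0.5 CPM per kb in both groups. The leukocyte chains Itgal, Itgam and Itgax had 17, 2 and 1 counts and the fibroblast collagen receptor chain Itga11 had 9. The exons of Itga1 and Itga10 overlap gene models on the same strand that have no row of their own, and those of Itga4, Itga7, Itga8 and Itgav overlap genes on the opposite strand that held at most 8 counts. The sources used here do not give the strand setting of the counting, so reads of such pairs cannot be told apart.

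Laminin chains were uneven in level. The gamma1 gene Lamc1 had 24.2 ± 8.7 CPM per kb in GFP and 18.4 ± 6.56 in G392E-NS libraries. The beta chains were Lamb2 (6.63 ± 1.19 and 10.9 ± 2.61) and Lamb1 (1.86 ± 0.401 and 1.59 ± 0.416), and the leading alpha chain was Lama5, the broad basement membrane chain (2.7 ± 0.909 and 2.03 ± 0.461), ahead of the embryonic chain Lama1 (0.839 ± 0.11 and 0.674 ± 0.283). Lama4, of vessel basement membranes, stood at 0.0462 ± 0.0303 and 0.06 ± 0.015 CPM per kb. Lama2, the muscle and Schwann cell chain, had 24 counts in all, Lamb3 25 and Lamc3 5. Summed over chains, gamma exceeded alpha 5.11 to 7.46 times over the 6 libraries, and beta exceeded alpha 2.05 to 6.09 times. The alpha chain was the lowest of the 3 in all 6 libraries for the trimer of Lama5, Lamb2 and Lamc1. With Lamb1 in place of Lamb2, Lamb1 was the lowest in all 6 per kb of exon. That order depends on the length used, as Lamb1 has 9917 bases of exon but a longest transcript of 5784. Lama5 has 11388 bases by both measures, and per kb of the longest transcript Lama5 was the lowest in all 6.

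**Figure D1:**
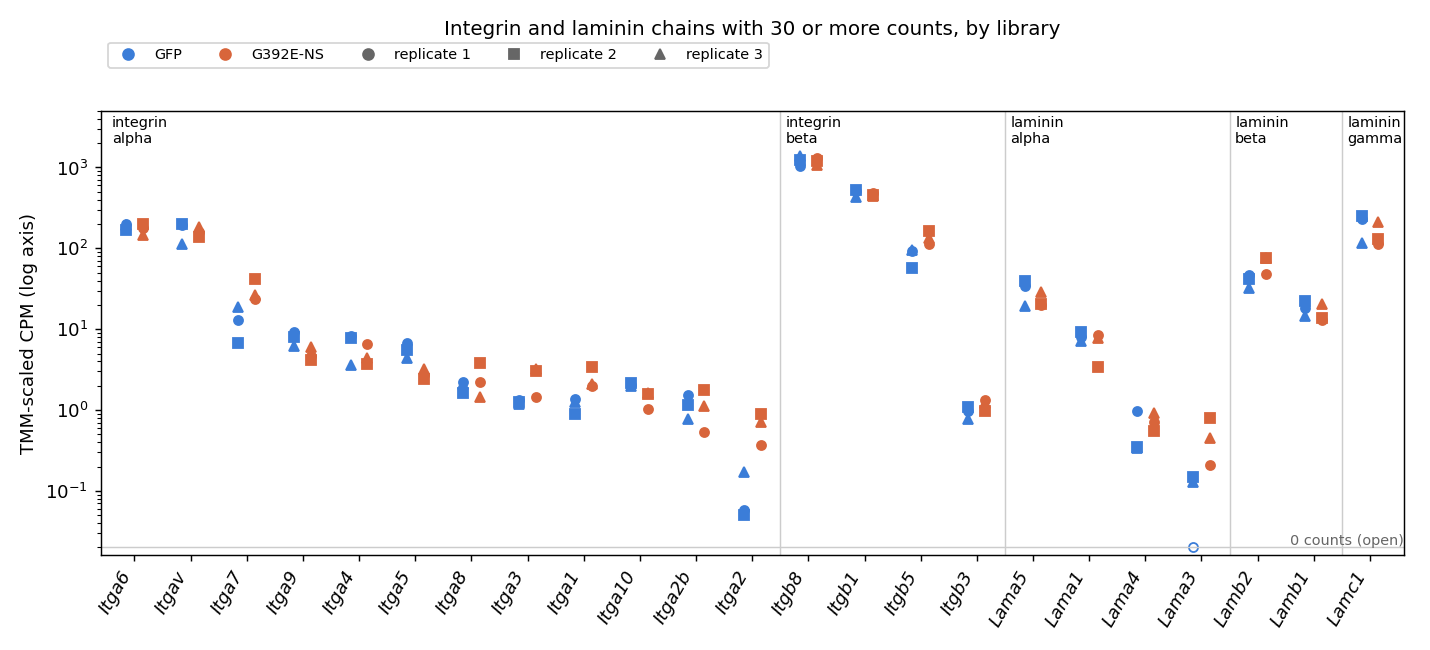
Scaled counts in CPM (log axis) of 23 integrin and laminin chains with 30 or more counts over all libraries, in each of the 6 libraries; blue is GFP, orange G392E-NS, and the marker shape gives the replicate number. Itgb8, Itgb1, Lamc1, Itga6 and Itgav are high in both groups, Itga5 lies lower and Itga7, Itgb5 and Lamb2 higher in all 3 G392E-NS libraries than in any GFP library, and the open point is the 1 library in which Lama3 had no count.

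The comparison of the groups asks whether cells with the neuroserpin variant carry other adhesion genes than GFP cells. Of the 24 chains, 22 passed the low-count filter applied to the whole table and were tested. Itga5 fell and no chain rose (edgeR quasi-likelihood test, adjusted p under 0.05 over 13775 genes). That is 1 of 22, or 4.55%, against 6.15% called over all genes tested (4.79% higher and 1.36% lower). Without the adjustment, 5 chains were higher and 3 lower at p under 0.05, a level that 22.4% of all genes tested reached in either direction. DESeq2 called 3 chains higher (Itga7, Itgb5 and Lamb2) and Itga5 lower, and limma-voom called none. Over all genes, DESeq2 called 1450 (1084 higher) and limma-voom 690 (522 higher), against 847 (660 higher) with edgeR. Groups did not overlap for 9 of the 22 chains, 5 higher and 4 lower, where 28.6% of all genes tested had no overlap. The median log2 fold change of G392E-NS over GFP was −0.09 over the 22 chains and −0.00469 over all genes tested. In bulk RNA, fewer cells of a type and less RNA per cell cannot be told apart.

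Itga5 (ENSMUSG00000000555, GRCm38 chromosome 15, 103344286 to 103366763) encodes the alpha chain of the classical fibronectin receptor. It had 6.8, 5.47 and 4.36 CPM in GFP replicates 1 to 3 and 2.7, 2.42 and 3.26 CPM in G392E-NS replicates 1 to 3. All 3 G392E-NS libraries lay below the lowest GFP library. The level was 1.99-fold lower (log2 fold change −0.99, SE 0.23, 95% interval −1.53 to −0.45, adjusted p = 0.0478). The call stood close to the threshold and was lost in 7 of 15 alternative settings, among them limma-voom (adjusted p = 0.0544) and the omission of GFP replicates 1 (0.182) or 2 (0.149) or of any G392E-NS replicate (0.0694, 0.135 and 0.0659), while the direction held in all 15. The fibronectin gene Fn1, its ligand, had 10.7 and 6.15 CPM and did not pass the test (log2 fold change −0.80, SE 0.26, adjusted p = 0.117).

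Itgb5, the partner of alphav in a vitronectin receptor (ENSMUSG00000022817, chromosome 16, 33829665 to 33949338), had 93.9, 56.6 and 95.3 CPM in GFP libraries against 114, 166 and 134 in G392E-NS ones. The groups did not overlap, but the difference did not pass the test (log2 fold change 0.75, SE 0.21, adjusted p = 0.084, and 0.0116 with DESeq2). Itga7, the laminin receptor chain best known from muscle (ENSMUSG00000025348, chromosome 10, 128933818 to 128958282), had 13.1, 6.83 and 18.9 CPM in GFP libraries against 23.7, 41.4 and 26.5 in G392E-NS ones. Its difference (1.23 on the log2 scale, SE 0.35, adjusted p = 0.0837, and 0.00443 with DESeq2) also missed the threshold. Lamb2, the laminin beta2 gene (ENSMUSG00000052911, chromosome 9, 108479736 to 108490530), had 46.9, 41.5 and 32.6 CPM in GFP libraries against 47.7, 75.6 and 74.9 in G392E-NS ones, where replicate 1 was little above the highest GFP library. Its log2 fold change was 0.71 (SE 0.20, adjusted p = 0.0809, 0.0134 with DESeq2 and 0.0195 without G392E-NS replicate 1).

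The upstream sequences of Itga5, Itgb5 and Lama5 are given as examples of chains from the group comparison and the library pattern, not as a full set. RefSeq (GRCm38.p6) promoter entries were found for 25 of the 37 members. Each run below is the 250 bases before the annotated start, 5′ to 3′ on the gene's strand, with matches to the GC box GGGCGG, read on both strands, in capitals. They lie at chr15:103366792-103367041, minus strand (Itga5), chr16:33829415-33829664, plus strand (Itgb5) and chr2:180225860-180226109, minus strand (Lama5).
Itga5: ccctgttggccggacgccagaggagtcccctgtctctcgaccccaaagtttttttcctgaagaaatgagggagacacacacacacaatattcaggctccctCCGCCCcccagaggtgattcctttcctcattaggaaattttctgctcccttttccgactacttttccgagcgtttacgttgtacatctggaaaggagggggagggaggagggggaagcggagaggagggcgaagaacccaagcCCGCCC
Itgb5: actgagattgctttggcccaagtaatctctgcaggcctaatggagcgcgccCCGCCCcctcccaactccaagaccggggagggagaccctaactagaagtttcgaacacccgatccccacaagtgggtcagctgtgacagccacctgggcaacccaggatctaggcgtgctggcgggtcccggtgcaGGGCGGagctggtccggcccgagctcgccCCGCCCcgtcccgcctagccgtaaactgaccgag
Lama5: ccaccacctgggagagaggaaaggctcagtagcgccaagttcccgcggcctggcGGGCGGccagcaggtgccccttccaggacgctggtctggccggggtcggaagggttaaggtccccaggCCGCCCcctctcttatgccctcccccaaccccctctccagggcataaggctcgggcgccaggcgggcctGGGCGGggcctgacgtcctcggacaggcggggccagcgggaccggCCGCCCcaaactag
The GC box was found 2 times upstream of Itga5, 3 times upstream of Itgb5 and 4 times upstream of Lama5, in windows with 55.6%, 65.2% and 72.4% G and C in that order, where the median of all entries was 52.4%. The window of Lamb2, which missed the threshold as Itgb5 did and is not printed, held 43.6% G and C and no GC box. Over all members 8 of 25 had it in an entry, and 32.7% of all 32851 promoter entries had it. The AP-1 motif TGANTCA and the TATA motif TATAAA, searched on both strands, were in none of these windows, and 6.7% and 12.4% of all entries held them.

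Other chains differed at an unadjusted p under 0.05 in the edgeR test but not after adjustment, among them Itga1, Itga3 and Itga9. The collagen receptor chain Itga1 had 1.38, 0.903 and 1.24 CPM in GFP libraries against 2, 3.44 and 2.09 in G392E-NS ones (log2 fold change 1.10, SE 0.31, adjusted p = 0.0789). The laminin receptor chain Itga3 had 1.26 ± 0.0636 and 2.58 ± 0.978 CPM (log2 fold change 1.02, adjusted p = 0.122, and 0.0215 without G392E-NS replicate 1). Itga9 had 7.86 ± 1.6 and 4.94 ± 0.965 CPM (log2 fold change −0.67, adjusted p = 0.125). These 3 genes had groups that did not overlap. Neither did those of Itga10, a collagen receptor chain of cartilage, at 2.06 ± 0.0837 and 1.41 ± 0.325 CPM (adjusted p = 0.242).

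The 4 integrin chains with the highest CPM had small fold changes. Per kb of exon, Itgb5 averaged 23.1 CPM in GFP and 38.8 in G392E-NS libraries, above Itga6 (20.8 and 19.3) and Itgav (15.6 and 14.9). The log2 fold change of Itgb5 was 0.75, and its groups did not overlap. The 95% interval of the log2 fold change ran from −0.36 to 0.16 for Itgb1, from −0.36 to 0.30 for Itgb8, from −0.41 to 0.20 for Itga6 and from −0.55 to 0.40 for Itgav, so that a 2-fold difference lay outside each of them. Itga6 had 201, 169 and 192 CPM in GFP libraries against 179, 199 and 146 in G392E-NS ones, groups that overlapped. Itgb1 had 518, 527 and 433 CPM in GFP libraries against 477, 454 and 447 in G392E-NS ones, the narrowest spread of these. The intervals were wider for Lamc1 (−1.12 to 0.33), Lama5 (−1.02 to 0.19) and Lama1 (−1.05 to 0.41), and these include a 2-fold lower level. The other tested chains, Itga4, Itga8, Itga2b, Itgb3, Lama4 and Lamb1, had overlapping groups and adjusted p of 0.526 to 0.999. Itgb3bp had 5.68 ± 0.143 and 6.83 ± 2.14 CPM (adjusted p = 0.532), and its exons overlap those of Pgm1, which held 13512 counts, on the opposite strand.

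**Figure D2:**
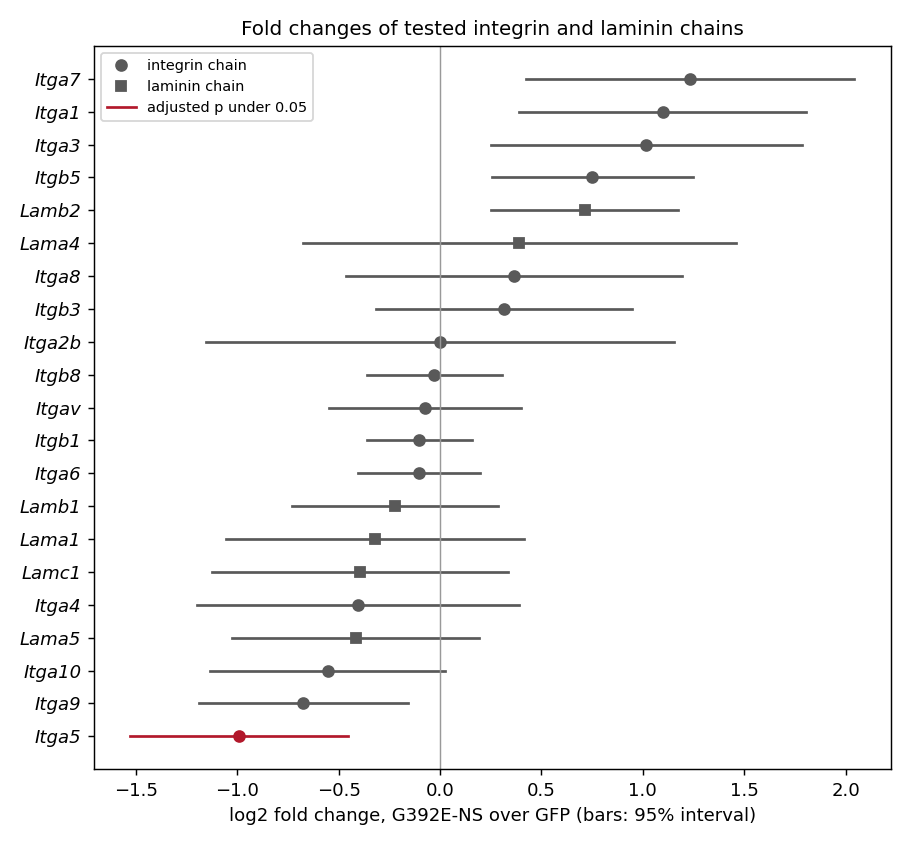
Log2 fold change of G392E-NS over GFP with its 95% interval for 21 of the 22 integrin (circles) and laminin (squares) chains tested; red marks the 1 chain with an adjusted p under 0.05. Itga5 is the red point at −0.99, and Itgb1, Itgb8 and Itga6 have the narrowest intervals around 0.

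Both of the chains that had 30 counts but did not pass the filter were almost without reads in GFP cells. Itga2, the alpha chain of a collagen and laminin receptor, had 1, 1 and 4 counts in GFP and 9, 21 and 11 in G392E-NS libraries, or 6 against 41 in all. All 3 G392E-NS libraries lay above the GFP libraries. Both genes reached the minimum of 30 counts only through the group in which they were high, so a fit with all genes of 30 or more counts (5.94% called, 4.66% higher) is given for them as a description and supports no difference. In that fit Itga2 stood at 2.67 on the log2 scale (SE 0.58, adjusted p = 0.0367, edgeR quasi-likelihood test), and its adjusted p was over 0.05 without any one of GFP replicates 1, 2 and 3 (0.148, 0.145 and 0.0501) or of G392E-NS replicate 3 (0.0833). Lama3, the alpha chain of the epithelial trimer, had 6 counts in GFP and 31 in G392E-NS libraries (adjusted p = 0.132 in that fit). At this depth, levels of both genes stayed under 1 CPM in each library.

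Integrin chains were then set beside the laminin chains they bind. Within the laminin-binding alpha chains, Itga7 made up 6.72%, 4.26% and 9.78% of the summed Itga3, Itga6 and Itga7 level per kb in GFP and 12.7%, 18.5% and 16.4% in G392E-NS libraries, and Itga6 most of the remainder. The highest GFP value lay below the lowest G392E-NS value. For the laminins, the ratio of Lamb2 to Lamb1 per kb was 4.14, 3.03 and 3.7 in GFP libraries against 6, 8.86 and 5.94 in G392E-NS ones, again without overlap, and that of Lamc1 to Lamb2 was 3.64, 4.44 and 2.66 against 1.75, 1.25 and 2.11. Ratios within a library do not depend on its scaling. They were formed after the values of these chains were known and are given without a test. The ratio of the main laminin receptor chain to the main laminin alpha chain, Itga6 to Lama5, overlapped between the groups (GFP 5.44 to 12.6, G392E-NS 6.31 to 12.3), as did that of Itgb1 to Itga6 (4.98 to 6.89 and 5.05 to 6.78).

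**Figure D3:**
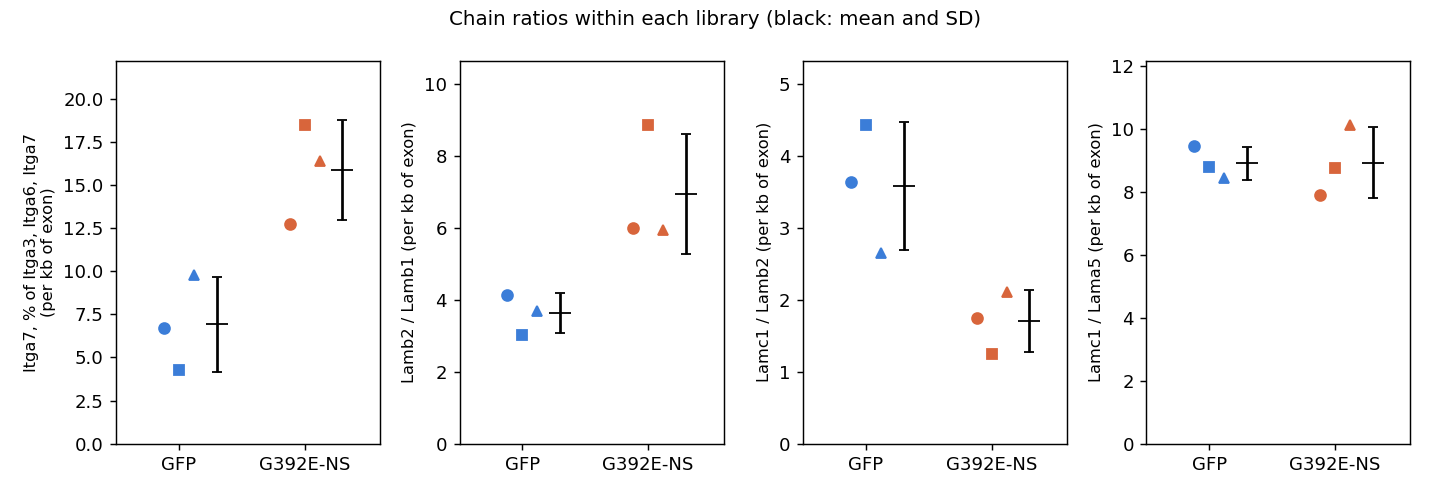
Ratios of chain levels per kb of exon within each library, with the mean and SD of each group in black; blue is GFP, orange G392E-NS, and circles, squares and triangles are replicates 1, 2 and 3. The Itga7 share, Lamb2 over Lamb1 and Lamc1 over Lamb2 separate the groups, whereas Lamc1 over Lama5 lies between 7.9 and 10.1 in all 6 libraries.

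Most of the variation of the laminin chains Lamc1, Lama5 and Lamb1 lay within the groups. Lamc1 (ENSMUSG00000026478) had 233, 250 and 118 CPM in GFP libraries against 114, 129 and 214 in G392E-NS ones. Lama5 had 33.9, 39.2 and 19.2 CPM in GFP libraries against 19.8, 20.3 and 29.1 in G392E-NS ones. Lamb1 had 18.5, 22.3 and 14.4 CPM in GFP libraries against 13, 13.9 and 20.5 in G392E-NS ones. For each of these 3 genes the same 3 libraries were low, namely GFP replicate 3 and G392E-NS replicates 1 and 2. The share of all genes with these 3 libraries lowest was not counted, so the pattern is not shown to be particular to these chains. The Lamc1 level varied 2.2-fold over the 6 libraries and the Lama5 level 2.04-fold, but the ratio of Lamc1 to Lama5 per kb 1.28-fold, between 7.9 and 10.1. The ratio of Lamc1 to Lamb1 varied more, 1.54-fold, between 9.83 and 15.1, where the Lamb1 level itself varied 1.72-fold. Lamb2, the leading beta chain, did not share this order, being lowest in GFP replicate 3 but highest in G392E-NS replicate 2. Its groups did not overlap. Itgav was also lowest in those 3 libraries, with 193, 197 and 114 CPM in GFP libraries against 158, 139 and 182 in G392E-NS ones.

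**Figure D4:**
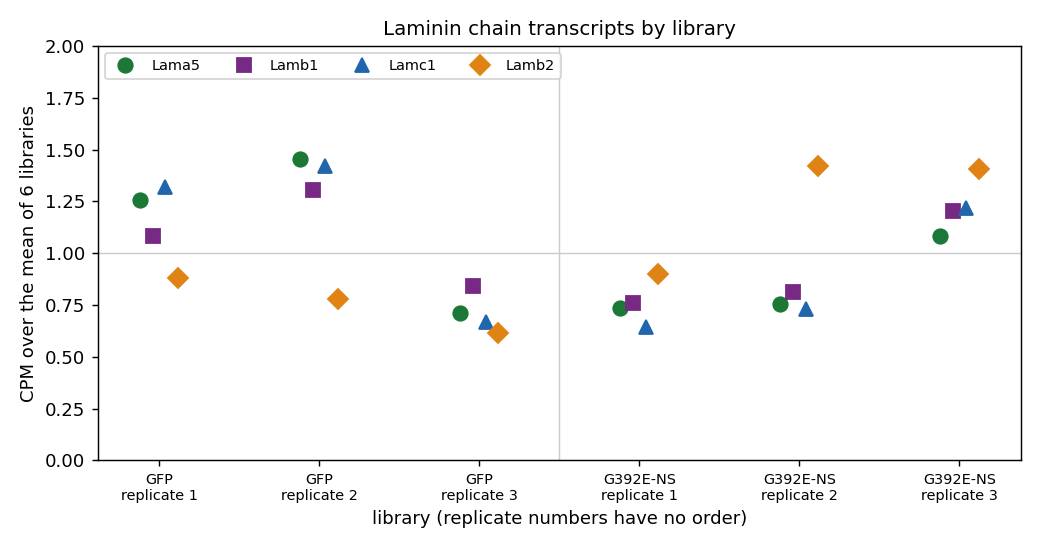
Level of 4 laminin chain genes in each library, as CPM over the mean of the 6 libraries (replicate numbers have no order). Lama5, Lamb1 and Lamc1 are low in GFP replicate 3 and G392E-NS replicates 1 and 2, whereas Lamb2 lies apart from them in most libraries.

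Itga7 and Itgb5 ranked the 6 libraries identically, with GFP replicate 2 lowest and G392E-NS replicate 2 highest. This order was shared by the summed astrocyte markers, at 2025, 1316 and 2171 CPM in GFP libraries against 4061, 7717 and 4581 in G392E-NS ones, and by Aldoc, a large part of that sum. Slc1a2, Aldh1l1 and Gja1 each ranked the libraries in another order. Of all genes tested, 2.07% (285 genes) had that order. It places every G392E-NS library above every GFP library, as the levels of these chains do, so part of it was fixed once they were chosen. The 285 genes lie within the 2156 that had no overlap and were higher in G392E-NS libraries. The part of astrocyte marker levels in the Itga7, Itgb5 and Itga2 differences was not tested, nor was that of Twist1 in the Itga2 difference. The Lama5, Lamb1 and Lamc1 order differed from it.

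Other genes of the pathway were described from lists of partners, receptors, ligands and adaptors. Their unadjusted counts stand beside 22.4% of all genes tested at p under 0.05. Their DESeq2 calls stand beside 1450 genes (1084 higher) that DESeq2 called over all genes, against 847 with edgeR. None of 9 basement membrane partners passed the edgeR test (median log2 fold change 0.47), while 4 were higher and 2 lower at an unadjusted p under 0.05, DESeq2 called 3 higher and 1 lower, and limma-voom called none. Nid1, the nidogen that links laminin to collagen IV, was the nearest, with 2.71, 0.954 and 2.82 CPM in GFP libraries against 6.4, 14.8 and 5.02 in G392E-NS ones (log2 fold change 2.02, SE 0.51, adjusted p = 0.0563). Of 5 other laminin receptors tested none passed, and 1 was higher at an unadjusted p under 0.05, with no call by DESeq2 or limma-voom. It was Bcam, a Lutheran receptor for Lama5 (2.3 ± 0.16 and 3.8 ± 0.666 CPM, adjusted p = 0.0945). The dystroglycan gene Dag1 was abundant, at 372 and 448 CPM (adjusted p = 0.311).

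None of 5 other integrin ligands tested passed the edgeR test. At an unadjusted p under 0.05, 1 was higher and 2 lower, and DESeq2 called the same number while limma-voom called none. The tenascin gene Tnc, a ligand of alpha9 integrin, was nearest, at 10.7 ± 3.2 CPM in GFP libraries against 4.74 ± 1.7 in G392E-NS ones (log2 fold change −1.16, SE 0.31, adjusted p = 0.0697). Of 24 adaptors and kinases that act inside the cell at integrin contacts 21 were tested with edgeR, and 1 rose, beside 4.79% of all genes tested. It was Parvb, which encodes beta-parvin, a partner of integrin-linked kinase (gene Ilk, 1 count over all libraries and not tested). It had 2.82, 2.06 and 4.15 CPM in GFP libraries against 8.56, 16 and 5.48 in G392E-NS ones (log2 fold change 1.73, SE 0.42, adjusted p = 0.0494). That call was lost with RLE scaling (0.0509), total-count scaling (0.0513) and limma-voom (0.0742), with at least 1 CPM required (0.0539) and without any one of GFP replicates 1, 2 or 3 (0.173, 0.162 and 0.067) or G392E-NS replicates 1 or 2 (0.0589 and 0.102). The replicate block, under which no gene of this list was called, lost it as well. At an unadjusted p under 0.05, 5 of the 21 were higher and 1 lower. DESeq2 called 3 higher (Parvb, the tensin gene Tns3 and the vinculin gene Vcl) and the kinase gene Fyn lower, and limma-voom called none. The median log2 fold change of the list was 0.04.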

How the data were processed

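The deposited table holds raw counts per Ensembl gene and library, whole numbers that the authors did not normalise, as the values show. Per the submitters' processing notes, the tools were DESeq2 1.4.5, HTSeq 0.6.1, TopHat2 2.0.12 and R 3.2.2 and the build GRCm38, with no role stated. Groups and replicate numbers came from the labels. Symbols, positions and exon lengths of 37693 genes came from GENCODE M21 (GRCm38). Libraries held 15507487 to 24835835 counts, and replicate pairs differed by far more than sampling noise (chi-square per degree of freedom 8.02 to 56.4).

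Low-count genes were removed with filterByExpr (13775 left), libraries were scaled with TMM factors, and groups were compared with the quasi-likelihood F test of edgeR 4.0.16 in R 4.3.3, without covariates. Benjamini-Hochberg adjustment ran over the whole set of tested genes (threshold 0.05). CPM are TMM-scaled and given as mean ± SD, and 95% intervals use the test's degrees of freedom. The 15 alternatives were other scalings, DESeq2 1.42.0, limma-voom (limma 3.58.1), 3 other filters, the replicate number as a block and each library left out.

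By rule, every chain with 30 or more counts is named (except 1 that is counted but not reported here), called chains and the leading chain of each class have values by library, and each other list shows up to 4 called members or the nearest one. Other genes with values (among them Fn1 and Dag1), the chains whose groups did not overlap, the ratios, the printed promoters and the motifs were chosen after values were seen. The members and lists were chosen with earlier results of these data known.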

Additional observations from a re-analysis of the deposited data

How the results depend on the processing

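The 15 settings moved the number of chains called but seldom the direction of a fold change. Itga2, for which no test is given, is left out of the chains called higher. They numbered 3 with DESeq2 (Itga7, Itgb5 and Lamb2), against 0. With no low-count filter they were Itga1, Itga7, Itgb5 and Lamb2, and with 30 or more counts summed there were none. With a library left out, Itga3 and Lamb2 were called higher without G392E-NS replicate 1, and no chain in the other cases. Chains called lower numbered 0 with limma-voom and with the replicate block, against 1, and 0 to 1 with a library left out. Over all genes, 1450 were called with DESeq2 (1084 higher), 1579 with no low-count filter (1205 higher) and 267 with the replicate block (217 higher), against 847 (660 higher). With a library left out the calls numbered 242 (196 higher, without GFP replicate 1) to 1373 (981 higher, without G392E-NS replicate 1).

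For the 25 members with a fold change, 333 of 367 values under alternatives kept direction and side of the threshold. For Itga5, 7 values lost the call, and 9 values of other chains gained one. Another 5 were of Itga2. No test is given for that gene, so its values are not read as calls kept or lost. Direction turned in 13 values of chains that were not called in any setting. Itga2b had 0.00093 with at least 1 CPM required. With a library left out, log2 fold changes ran from −0.52 to 0.34 for Itga2b, −0.202 to 0.00964 for Itga6, −0.0765 to 0.622 for Itga8, −0.291 to 0.0536 for Itgav, −0.127 to 0.0732 for Itgb8 and −0.584 to 0.00365 for Lama1.

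Replicate numbers did not pair the libraries: deviations of same-numbered libraries from their group means correlated at 0.04, −0.42 and −0.27. Those of GFP replicate 3 and G392E-NS replicate 2 correlated at 0.325, and those of GFP replicate 2 and G392E-NS replicate 3 at 0.385. The remaining pairs lay between −0.0678 and 0.0509. With the replicate block Itga5 had an adjusted p of 0.14. Per kb of the longest transcript, Lamb2 made up 69% and 80.7% of the laminin beta level (77.9% and 86.8% per kb of exon). Depth limits the chains with few counts: the 95% interval of Lama4, with 76 counts in all, ran from −0.68 to 1.46.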
